A study of Homo sapiens with 6 samples.

Results

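The proteasome genes were described in RNA sequencing of HCT-116 cells, a human colorectal carcinoma line. Members were the rows of the deposited expression table that name a gene of the PSMA to PSMG series or POMP, a rule that used no measured value. It found 48 rows of 27918, of which 46 had a mean of at least 0.1 FPKM (fragments scaled to transcript length and to the mapped fragments of the library) over all libraries and were tested, whereas PSMB8 and PSMB11 lay below that filter. PSMA8 and PSMD3IP were not among the rows analysed here.

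The study compared 3 libraries of cells transfected with a control GapmeR (GapNC) and 3 of cells transfected with a GapmeR against the long noncoding RNA CASC9 (GapC9), both at 10 nM and by lipofection. A GapmeR is a short antisense oligonucleotide that pairs with an RNA and directs RNase H to cut it. The harvest time is given as 24 h in one place and 48 h in another. Poly(A) RNA was sequenced in pairs from a single cell line, and beyond a general statement that experiments were repeated, nothing says whether the 3 libraries of a group came from separate cultures, so p-values measure the spread between these libraries, which may be technical.

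CASC9 itself, at the edge of detection, was listed at 0, 0.0109 and 0 FPKM in GapNC. In GapC9 its row was at 0.0528, 0.107 and 0 FPKM, levels so near 0 that this row cannot check the knockdown in either direction. The study measured CASC9 by RT-qPCR, which is not analysed here, and directions below are those between the libraries as labelled. Summed FPKM was 152661 to 166816 per library, and the libraries held about 22.8 to 24.4 M fragments if the commonest step between low values is 1 fragment. Of the epithelial markers, EPCAM was at 62.3 to 88.4 FPKM, KRT8 at 316 to 480 FPKM, KRT18 at 318 to 436.5 FPKM and KRT19 at 224 to 407 FPKM. CDH1 was lower, at 8.43 to 14.3 FPKM, and CDX2 lower still, at 1.59 to 3.79 FPKM. Among markers of other cell types, PTPRC and COL1A2 were at 0 in 5 of 6 libraries each and PECAM1 was at most 0.0467 FPKM. CD68 was at 49.8 to 55.8 FPKM, but in a row joined with EIF4A1 and other genes, and DCN was not found among the rows. Libraries stood apart in how their values followed GC content, as given beside the results that this touches.

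The proteasome is the protease that degrades ubiquitin-tagged proteins in the cytosol and nucleus. Its 20S core is a barrel of alpha rings, which gate the entry, and beta rings, which hold the active sites. The 19S regulatory particle caps the barrel, with ATPases that unfold the substrate and non-ATPase subunits that bind and remove ubiquitin. Dedicated chaperones build both, and other activators and inhibitors bind the same ends of the barrel. Dividing cancer cells depend on it, and the subunits are held in the particle in fixed proportions.

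The proteasome rows were strongly expressed. The median of their mean levels was 25.3 FPKM against 2.38 FPKM over all 16028 rows tested, and 35 of 46 members (76.1%) exceeded 10 FPKM in every library, compared with 14.6% of all tested rows. Replicates lay close together, with a median coefficient of variation of 11.1% in GapNC and 7.36% in GapC9. It was 16.2% and 10.7% over the 10229 rows of at least 1 FPKM, which were not matched to the members by level.

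By the mean over all 6 libraries, the 3 highest members were beta subunits of the 20S core. PSMB4 was at 108, 85.6 and 89.3 FPKM in GapNC and at 95.3, 95.1 and 90.0 FPKM in GapC9. PSMB3 was at 93.9, 70.0 and 76.0 FPKM in GapNC and at 80.3, 77.3 and 77.0 FPKM in GapC9. PSMB1 was at 71.8, 67.0 and 79.1 FPKM in GapNC and at 71.3, 80.6 and 83.3 FPKM in GapC9. All 3 overlapped between the groups, with log2 fold changes of -0.0050 ± 0.11, -0.02 ± 0.13 and 0.11 ± 0.11 (SE) and adjusted p values of 0.986, 0.937 and 0.554. The lowest tested members were PSMB9, PSMD9 and PSMG4, between 0.158 and 1.77 FPKM. PSMD9, a chaperone in a row shared with WDR66, was at 1.55, 1.22 and 1.07 FPKM in GapNC and at 1.31, 1.25 and 0.974 FPKM in GapC9, a log2 fold change of -0.11 ± 0.19 (SE) with an adjusted p of 0.762.

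**Figure D1:**
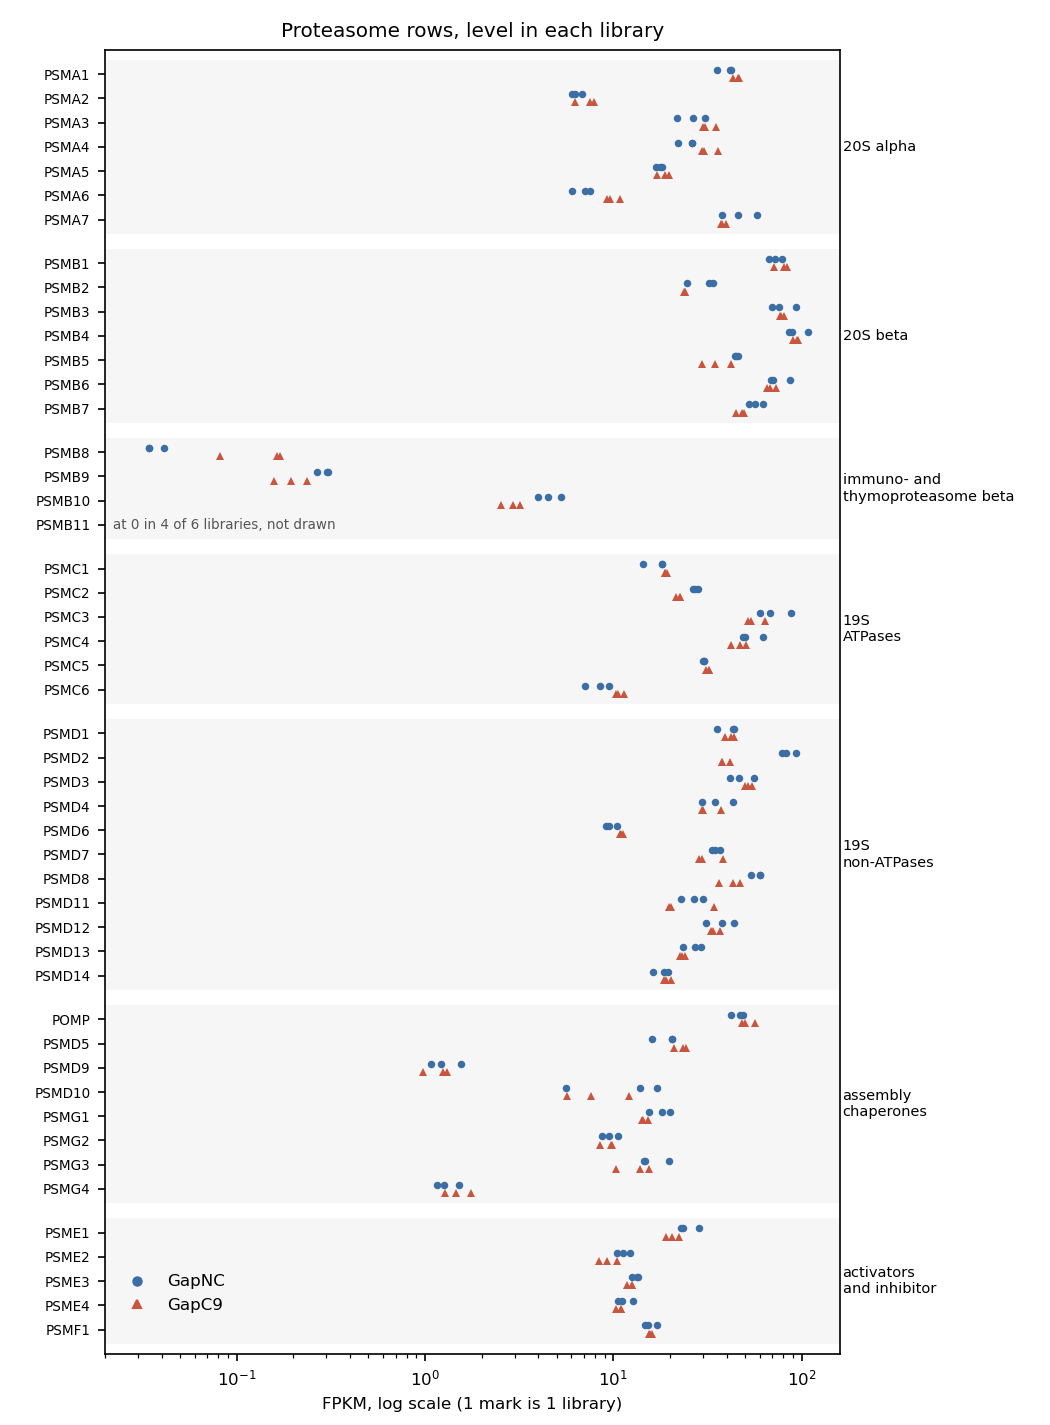
FPKM of each proteasome row on a log scale, with 1 mark for each of the 3 GapNC libraries (circles) and 3 GapC9 libraries (triangles), grouped by role. Most rows lie above 10 FPKM with the groups mixed or side by side, PSMD2 moves from 78.4 to 93.8 FPKM down to 37.7 to 41.7 FPKM, and PSMB8 and PSMB9 of the immunoproteasome lie lowest among the rows drawn. PSMB11 is not drawn.

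A single member passed a threshold. PSMD2, a non-ATPase subunit of the 19S base, fell to a ratio of 0.459, and no other member passed either an adjusted p of 0.05 or the study's rule of a ratio of at least 2 or at most 0.5 with an unadjusted p under 0.05. Among all tested rows, 5.10% were lower and 1.89% higher at the adjusted p, and 4.32% were lower and 2.10% higher by the fold rule. The 1 member of 46 that was lower, and the 0 that were higher, are thus no more than the share over all rows. By unadjusted p alone, 6 members were lower and 3 higher, or 13.0% and 6.52%, beside 16.8% and 9.09% of all tested rows.

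The members as a whole lay near the median of all rows. The median log2 fold change was -0.10 over the 46 members and -0.08 over all tested rows, with 18 members above 0 and 28 below. Median scaling of the libraries shifted the median of all rows to 0.07 and that of the members to 0.04, with 29 members above 0 and 17 below, so small differences of either sign turn with the scaling. The groups did not overlap for 8 members that were higher in GapC9 (17.4%) and 10 that were lower (21.7%), beside 12.6% and 21.6% of all tested rows.

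**Figure D2:**
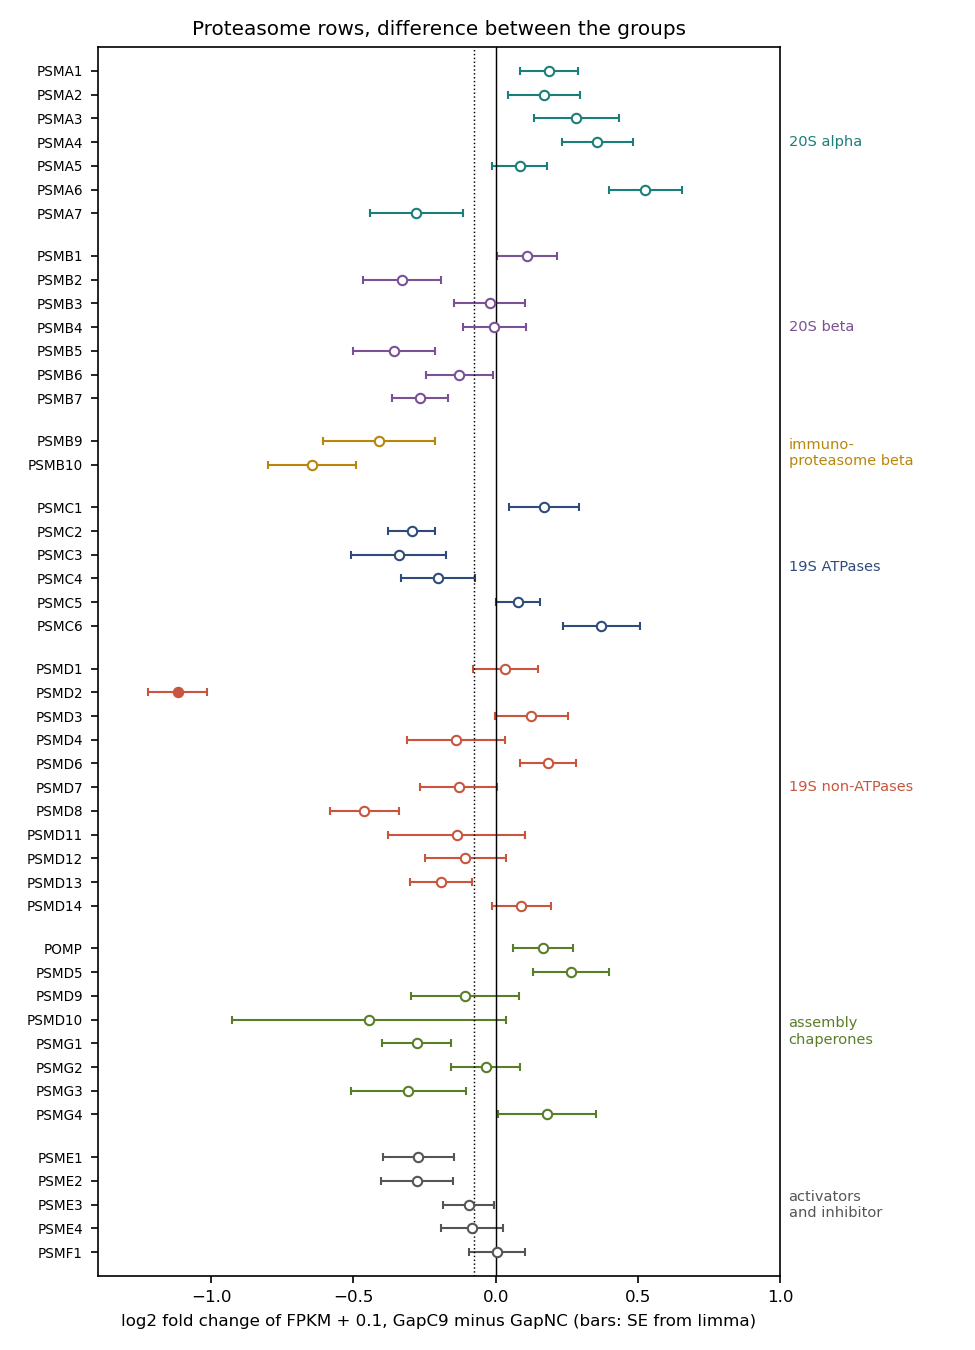
The log2 fold change of FPKM + 0.1 (GapC9 minus GapNC) of the 46 tested members, with standard errors from limma and colours by role. The filled point, PSMD2 at -1.12, passed an adjusted p of 0.05, open points did not, and the dotted line marks the median of all tested rows, -0.08.

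PSMD2 is the large scaffold of the 19S base on which ubiquitin shuttle factors and the deubiquitinase USP14 dock. Its levels were 93.8, 78.4 and 82.7 FPKM in GapNC and 41.7, 37.7 and 37.7 FPKM in GapC9, or 85.0 ± 7.97 and 39.0 ± 2.30 (SD, n = 3). Every GapC9 library was well below every GapNC library. In RNA from whole cultures, a lower level in every cell and fewer cells that express the gene cannot be told apart. The log2 fold change was -1.12 with a standard error of 0.10 (95% interval -1.37 to -0.87), and the adjusted p was 0.0147 in limma. Ranked by level among the 46 tested members, PSMD2 was the 3rd, 2nd and 2nd highest in the GapNC libraries and the 11th, 14th and 15th in the GapC9 libraries.

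The size of the PSMD2 difference held in each alternative, with log2 fold changes from -1.17 to -0.97, but the call did not hold with every library left out. The adjusted p was 0.0560 without GapNC replicate 2, 0.0538 without GapC9 replicate 1, 0.0706 without GapC9 replicate 2 and 0.0668 without GapC9 replicate 3, whereas it was 0.0213 without GapNC replicate 1 and 0.0496 without GapNC replicate 3. Fewer libraries cut the calls over the whole table too. Rows lower at the adjusted p fell from 817 to 570 without GapNC replicate 1 and to between 16 and 84 in the other fits. After median scaling or a correction for GC content the adjusted p was 0.0184 and 0.00356, but the ratio rose to 0.508 and 0.507, just past the fold limit.

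PSMD2 lies on the plus strand of chromosome 3, from 184298709 to 184309054 in the GENCODE annotation of GRCh38, where no other annotated gene overlaps it and no pseudogene copy carries its name. Of 11 other tested rows within 100000 bases, 1 passed an adjusted p of 0.05. This was CLCN2, a chloride channel gene at a log2 fold change of -0.93. Among all tested rows, 5.10% were lower and 1.89% higher at that threshold. The groups did not overlap for 2 of the 11 rows, both lower in GapC9, as were 21.6% of all tested rows. The 11 ranged from -0.93 to 0.56 with a median of -0.19.

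The spliced RNAs of PSMD2 matched the 16-base target of the CASC9 GapmeR with 5 mismatches at best. A match with 5 or fewer was found in 59.8% of 19669 protein-coding genes and in 24 of the 48 members. Among the members, the closest match was in PSMC5 with 2 mismatches. PSMC5, an ATPase of the 19S base in a row shared with DDX42, was at 30.2, 29.8 and 30.3 FPKM in GapNC and at 32.1, 31.1 and 32.1 FPKM in GapC9. Its values were thus slightly higher in each GapC9 library, at a log2 fold change of 0.08 ± 0.08 (SE) and an adjusted p of 0.567.

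The partner of PSMD2 in the 19S base, PSMD1, is built of the same kind of repeats and forms the other large scaffold. It was at 35.7, 43.4 and 44.0 FPKM in GapNC and at 39.4, 42.3 and 43.9 FPKM in GapC9. The groups overlapped throughout, and the log2 fold change was 0.03 ± 0.11 (SE), with a 95% interval of -0.25 to 0.31. The ratio of PSMD2 to PSMD1 within a library was 2.63, 1.81 and 1.88 in GapNC and 1.06, 0.890 and 0.860 in GapC9. The 2 scaffolds were therefore at about the same FPKM in the GapC9 libraries, and PSMD2 was the higher one in each GapNC library.

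**Figure D3:**
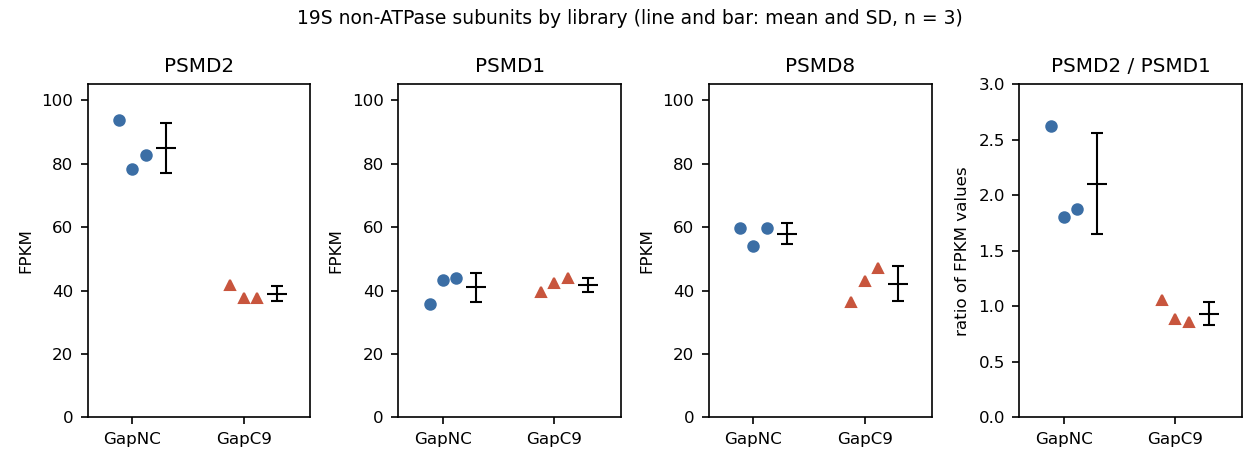
FPKM of PSMD2, PSMD1 and PSMD8 and the PSMD2 to PSMD1 ratio in each library (points), with the mean and SD of each group (line and bar, n = 3). PSMD2 fell from 85.0 to 39.0 FPKM while PSMD1 was at 41.0 and 41.9 FPKM, so the ratio went from 2.10 ± 0.45 to 0.936 ± 0.11.

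Both scaffold genes have GC-rich RefSeq promoters with matches to GGGCGG, the letters of the GC box, on either strand. Each had 3 in the 250 bases before its start, none of which overlapped the other motifs searched. The starts are those of RefSeq. For PSMD2 and PSMB10 the GENCODE annotation has transcripts that begin further upstream, so that the stretches shown for them lie inside the annotated gene. The annotated gene of PSMD1 starts at 231056864, so the last bases of its stretch lie inside it too. The following stretches of 30 bases are shown because PSMD2 is the member that passed and PSMD1 is its counterpart. PSMB10 had the largest difference among the tested members that did not pass. Capitals mark GGGCGG in the first pair and GAAANNGAA, the repeat of the interferon-stimulated response element, in the last.
PSMD2 chr3:184299067-184299096 (GRCh38.p14, plus strand): tccgaGGGCGGggtccgaGGGCGGggctct
PSMD1 chr2:231056837-231056866 (GRCh38.p14, plus strand): ggggtggcgggcagcccctGGGCGGGCGGg
PSMB10 chr16:67936852-67936881 (GRCh38.p14, minus strand): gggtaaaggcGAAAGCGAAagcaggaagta

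The RefSeq table held a promoter for 42 of the 48 members and for 27305 genes in all, counting the first entry of each gene. Within 250 bases before the start and on both strands, GGGCGG was found in 26 members (61.9%) and 42.3% of all genes. CCAAT, the CCAAT box, was found in 18 members (42.9%) and 33.0% of all genes. TGACNNNGC, the antioxidant response element core bound by NFE2L1 and NFE2L2, was found in 11 members (26.2%) and 11.0% of all genes, and GAAANNGAA in 6 members (14.3%) and 7.06%. PSMD2 and PSMD1 matched only the first of these motifs. These counts describe letters and not binding.

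PSMD8, a subunit of the 19S lid, had the next largest difference among the non-ATPases. It was at 59.8, 54.1 and 59.8 FPKM in GapNC and at 36.4, 43.1 and 47.2 FPKM in GapC9. The groups did not overlap, but the log2 fold change of -0.46 ± 0.12 (SE) did not pass, at an adjusted p of 0.0791, and was -0.25 after the GC correction. The row has 1 pseudogene copy, PSMD8P1.

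The other 9 non-ATPases were at -0.19 to 0.18 on the log2 scale. They include PSMD4, a ubiquitin receptor, at -0.14 ± 0.17 (SE), and PSMD14, the deubiquitinase of the lid, at 0.09 ± 0.10 (SE). PSMD3, a lid scaffold, was at 0.13 ± 0.13 (SE) and adjusted p 0.573 in the values as deposited, and at 0.31 with an adjusted p of 0.0332 after the GC correction. PSMD11, which helps to hold the regulatory particle and the core together, varied most of these within GapC9, at 34.1, 19.9 and 20.2 FPKM, with GapC9 replicate 1 high.

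The 11 non-ATPase rows summed to 422 ± 13.9 FPKM in GapNC and 353 ± 10.5 FPKM in GapC9 (SD, n = 3), with no overlap between the groups. Without PSMD2 the sums were 337 ± 6.52 and 314 ± 9.03 FPKM, still apart. Without PSMD2 and PSMD8 they were 279 ± 3.33 and 272 ± 11.5 FPKM and overlapped. These 2 had the lowest log2 fold changes of the 11 rows, so leaving them out was bound to bring the sums closer and is not a test.

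The ATPases of the 19S base, PSMC1 to PSMC6, which form one ring, were divided, with 3 above and 3 below 0 and none called. PSMC2 was at 27.2, 28.1 and 26.6 FPKM in GapNC and at 21.4, 22.6 and 22.6 FPKM in GapC9. Its groups did not overlap, at a log2 fold change of -0.29 ± 0.08 (SE) and an adjusted p of 0.0901, which became 0.0448 after the GC correction.

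PSMC6 moved the other way, at 7.09, 8.48 and 9.46 FPKM in GapNC and 10.3, 11.4 and 10.6 FPKM in GapC9, a log2 fold change of 0.37 ± 0.13 (SE) and an adjusted p of 0.154. PSMC3 and PSMC4, which have the highest GC content of the ring, were at -0.34 ± 0.17 and -0.20 ± 0.13 (SE) with overlapping groups. PSMC1 was at 0.17 ± 0.12 (SE), and the gene has 13 annotated pseudogene copies among which reads could be divided.

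The 20S alpha subunits form the outer rings of the barrel. Of 7 rows, 6 were above 0 and PSMA7 was below, with a median log2 fold change of 0.19, and the same split was found under median scaling, quantile normalization and the GC correction. No row was called at the adjusted p. The groups did not overlap for PSMA1, PSMA4 and PSMA6, 3 of 7 rows, all higher in GapC9, as were 12.6% of all tested rows. The row of PSMA1 also names COPB1, so its value cannot be assigned to PSMA1 alone.

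PSMA6 had the largest positive log2 fold change among the tested members. It was at 6.06, 7.51 and 7.08 FPKM in GapNC and 9.30, 10.9 and 9.64 FPKM in GapC9. All GapC9 libraries were above all GapNC libraries, at a log2 fold change of 0.53 ± 0.13 (SE) and an adjusted p of 0.0643. The adjusted p was 0.0177 after the GC correction, 0.0496 after median scaling and 0.0489 with a filter at 1 FPKM. The row joins PSMA6 with KIAA0391, a subunit of the mitochondrial ribonuclease P, and 4 pseudogene copies of PSMA6 are annotated, so the value cannot be assigned to PSMA6 alone.

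PSMA4, in a row of its own, was at 22.2, 26.2 and 26.1 FPKM in GapNC and at 29.4, 30.3 and 35.9 FPKM in GapC9, a log2 fold change of 0.36 ± 0.12 (SE) with an adjusted p of 0.141. PSMA7 was at 58.0, 45.8 and 37.7 FPKM in GapNC and at 38.0, 37.2 and 39.6 FPKM in GapC9. Only GapNC replicates 1 and 2 were above the GapC9 range. The 7 alpha rows summed to 169 ± 2.77 FPKM in GapNC and 183 ± 4.04 FPKM in GapC9 without overlap, but the rows that name a single gene, PSMA3, PSMA4, PSMA5 and PSMA7, summed to 116 ± 4.37 and 121 ± 2.32 FPKM and overlapped.

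The 20S beta subunits form the inner rings. Of the 7 constitutive rows 6 were below 0, with a median log2 fold change of -0.13 that became 0.02 under median scaling and 0.05 after the GC correction, with 4 above and 3 below 0 in both. None was called. The groups did not overlap for PSMB2, PSMB5 and PSMB7, 3 of 7 rows, all lower in GapC9, as were 21.6% of all tested rows.

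The 3 catalytic subunits did not pass the test. PSMB5, which carries the chymotrypsin-like activity and is the main target of bortezomib, was at 44.3, 44.7 and 46.1 FPKM in GapNC and at 34.8, 42.2 and 29.5 FPKM in GapC9, a log2 fold change of -0.36 ± 0.14 (SE) with an adjusted p of 0.185. PSMB7, the trypsin-like subunit, was at 62.4, 56.9 and 52.7 FPKM in GapNC and at 49.5, 48.3 and 45.1 FPKM in GapC9, a log2 fold change of -0.27 ± 0.10 (SE) with an adjusted p of 0.161.

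Both had non-overlapping groups, with GapC9 replicate 3 lowest. PSMB6, the caspase-like subunit, was at 87.1, 70.8 and 69.0 FPKM in GapNC and at 67.8, 73.2 and 65.7 FPKM in GapC9. Its groups overlapped, and the log2 fold change was -0.13 ± 0.12 (SE; 95% interval -0.42 to 0.16) with an adjusted p of 0.536.

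Interferon-gamma induces other catalytic subunits that replace these to form the immunoproteasome. PSMB10, which replaces PSMB7, was at 5.30, 4.51 and 3.96 FPKM in GapNC and at 2.94, 2.54 and 3.18 FPKM in GapC9. The groups did not overlap, and the log2 fold change was -0.65 ± 0.15 (SE) with an adjusted p of 0.0631, which became 0.0469 with a filter at 1 FPKM and 0.0792 after the GC correction. The row joins PSMB10 with CTRL, a chymotrypsin-like protease gene. As a share of PSMB7 in the same library, PSMB10 was 7.98% ± 0.49 in GapNC and 6.08% ± 0.90 in GapC9 (SD, n = 3). These shares did not overlap, but they were not corrected for GC content, and the PSMB10 row is richer in GC than PSMB7. After the GC correction the log2 fold changes were -0.39 for PSMB10 and -0.22 for PSMB7. Whether the share differed after that correction was not tested.

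PSMB9, which replaces PSMB6, was at 0.306, 0.301 and 0.268 FPKM in GapNC and at 0.194, 0.158 and 0.236 FPKM in GapC9, with a log2 fold change of -0.41 ± 0.20 (SE) and an adjusted p of 0.250, in a row that also names the antisense gene PSMB8-AS1. PSMB8, which replaces PSMB5, was below the filter, at 0.0342, 0.0343 and 0.0409 FPKM in GapNC and 0.170, 0.163 and 0.0815 FPKM in GapC9. It was higher in each GapC9 library, in contrast to PSMB9 and PSMB10, but at 0.0410 to 0.0439 FPKM for 1 fragment on 1 kb of transcript the GapNC values correspond to very few fragments. PSMB11, the thymus-specific subunit, was listed at 0 in 4 of 6 libraries and at most 0.0392 FPKM in the others.

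The assembly chaperones were present at 1.23 to 48.8 FPKM on average, and none of 8 was called. POMP, which drives the maturation of the beta rings, was the most abundant, at 42.0, 47.0 and 49.0 FPKM in GapNC and 48.5, 49.9 and 56.6 FPKM in GapC9, a log2 fold change of 0.17 ± 0.11 (SE) with an adjusted p of 0.378. Its groups overlapped.

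The alpha ring is built on the pairs PSMG1 with PSMG2 and PSMG3 with PSMG4. PSMG1 was at 15.5, 19.9 and 18.2 FPKM in GapNC and 14.5, 14.2 and 15.3 FPKM in GapC9, at -0.28 ± 0.12 (SE) on the log2 scale with an adjusted p of 0.211. PSMG2 was at 8.67, 9.44 and 10.6 FPKM in GapNC and 8.46, 9.69 and 9.82 FPKM in GapC9. The log2 fold change of PSMG2 was -0.04 ± 0.12 (SE) with an adjusted p of 0.886, and only PSMG1 of the pair had groups that did not overlap.

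PSMG3 was at 19.9, 14.5 and 14.7 FPKM in GapNC and 15.6, 13.8 and 10.4 FPKM in GapC9. PSMG4 was at 1.51, 1.26 and 1.16 FPKM in GapNC and 1.46, 1.77 and 1.28 FPKM in GapC9. Both overlapped, with log2 fold changes of -0.31 ± 0.20 and 0.18 ± 0.17 (SE) and adjusted p values of 0.389 and 0.550, and PSMG4 was far below its partner in each library.

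PSMD5, PSMD9 and PSMD10 hold the ATPases of the base during assembly. PSMD5 was at 16.1, 20.6 and 20.6 FPKM in GapNC and 21.0, 24.3 and 23.4 FPKM in GapC9, a log2 fold change of 0.27 ± 0.13 (SE) with an adjusted p of 0.268. PSMD10, known as gankyrin, was the most variable of the tested members, at 13.8, 17.2 and 5.61 FPKM in GapNC and 12.1, 7.65 and 5.67 FPKM in GapC9. Its coefficient of variation was 48.7% in GapNC and 38.9% in GapC9, so that the 95% interval of its log2 fold change ran from -1.62 to 0.73.

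The activators and the inhibitor bind the ends of the 20S core in place of, or beside, the 19S particle. PSME1 and PSME2, the interferon-inducible pair of the PA28 activator, differed by nearly the same amount, -0.27 ± 0.13 and -0.28 ± 0.13 (SE) on the log2 scale, with adjusted p values of 0.234 and 0.228. PSME1 was at 28.6, 23.5 and 22.9 FPKM in GapNC and 22.2, 20.6 and 18.98 FPKM in GapC9. PSME2 was at 12.3, 11.3 and 10.5 FPKM in GapNC and 10.5, 8.43 and 9.25 FPKM in GapC9.

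PSME3, the nuclear form of PA28 in a row shared with AOC2 and AOC3, was at 12.6, 13.5 and 13.5 FPKM in GapNC and 11.8, 12.5 and 12.6 FPKM in GapC9. PSME4, the large activator PA200, was at 10.5, 11.1 and 12.8 FPKM in GapNC and 11.1, 10.4 and 10.9 FPKM in GapC9. PSMF1, an inhibitor of the 20S core, was at 17.2, 15.3 and 14.8 FPKM in GapNC and 15.6, 15.6 and 16.1 FPKM in GapC9. All 3 overlapped between the groups, with log2 fold changes of -0.10 ± 0.09, -0.08 ± 0.11 and 0.0043 ± 0.10 (SE) and adjusted p values of 0.546, 0.669 and 0.987. The 95% interval of PSMF1 ran from -0.23 to 0.24.

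The differences of the members followed the GC content of their transcripts. Across the 46 members, Spearman's rho between log2 fold change and GC content was -0.56, compared with -0.25 across all tested rows. With the filter at 1 FPKM, which leaves out low rows, the rho was -0.54 across members and -0.33 across all rows. Genes are not independent replicates, and all points share the same 6 libraries. The alpha rows, with a median GC content of 42.9%, lay mostly above 0, the constitutive beta rows, at 49.2%, mostly below, and PSMB10, at 60.2%, was the richest in GC of the tested members.

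The libraries themselves differed along this axis. The Spearman's rho between GC content and a library's deviation from the row mean, over 10117 rows, was 0.616 in GapNC replicate 1, 0.00960 and -0.104 in the other GapNC libraries, and 0.0287, -0.336 and -0.376 in GapC9. Without GapNC replicate 1 the rho across members was -0.36, and after a lowess correction for GC content it was -0.22. After the correction PSMD2 was at -0.98, PSMA6 at 0.53, PSMB10 at -0.39 and PSMD8 at -0.25. The part of GC content in the differences of single members was not tested.

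**Figure D4:**
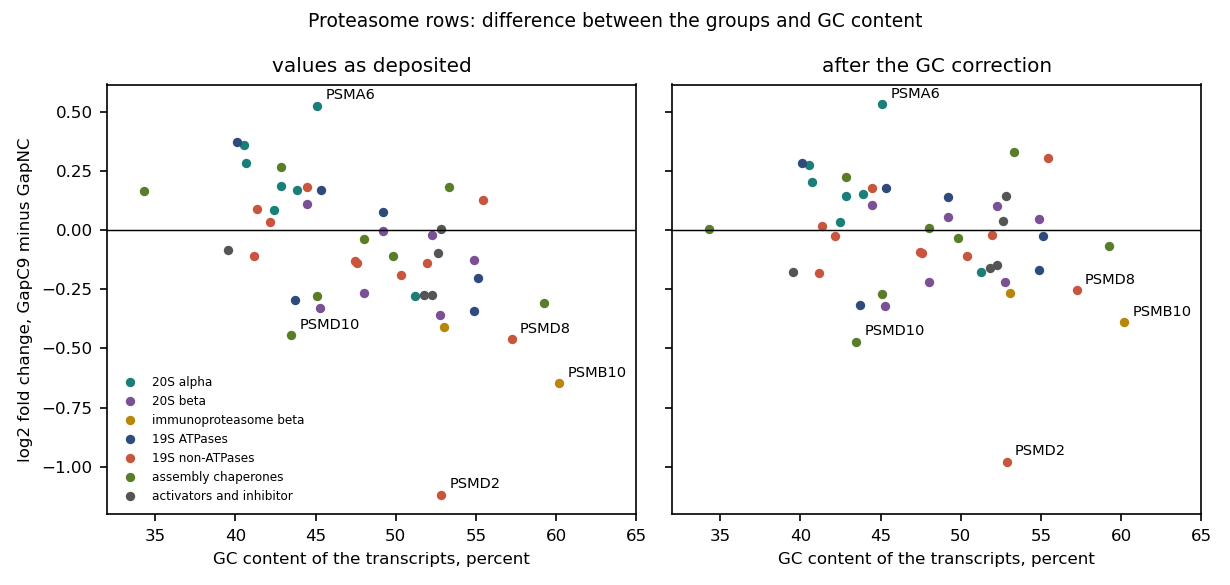
The log2 fold change (GapC9 minus GapNC) of the 46 tested members against the GC content of their transcripts in percent, for the deposited values (left) and after the GC correction (right), coloured by role. The downward slope, with a rho of -0.56, was reduced to -0.22 by the correction, and PSMD2 lay apart from the rest in both panels.

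Genes that work with the proteasome without carrying a PSM name were taken from 5 lists, on the regulatory particle and its bound factors, ubiquitin shuttles, regulators of proteasome genes, ubiquitin and its activation, and antigen processing. Of 41 tested rows, 0 were higher and 2 lower at the adjusted p, and their median log2 fold change was 0.05. The lower rows at the adjusted p are 4.88%, beside 5.10% of all tested rows. By unadjusted p in limma, 1 was higher and 8 lower, or 2.44% and 19.5%, beside 9.09% and 16.8% of all tested rows. By groups that did not overlap, 1 was higher and 8 lower, again 2.44% and 19.5%, beside 12.6% and 21.6%, so the shares lower were near those over all rows.

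The 2 that passed the adjusted p, both lower in GapC9, bind the proteasome. Other partner rows were lower without passing it. PAAF1, a chaperone of the 19S ATPases, was at 1.39, 1.54 and 1.42 FPKM in GapNC and at 0.547, 0.502 and 0.571 FPKM in GapC9, a ratio of 0.372 with a log2 fold change of -1.28 ± 0.13 (SE) and an adjusted p of 0.0159. KIAA0368, a scaffold protein that binds the 26S particle, was at 16.5, 16.6 and 17.5 FPKM in GapNC and 11.5, 11.8 and 12.6 FPKM in GapC9, with a log2 fold change of -0.49 ± 0.09 (SE) and an adjusted p of 0.0361. Both had tight replicates and no overlap between the groups.

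PAAF1 passed in 1 of 6 fits that left out a library, that without GapNC replicate 1. It was at adjusted p 0.0662 and 0.0544 without GapNC replicates 2 and 3, and 0.0586, 0.0735 and 0.0668 without GapC9 replicates 1, 2 and 3. With a library left out, KIAA0368 likewise passed in 1 of 6 fits, that without GapNC replicate 1. It was at 0.0997 and 0.0845 without GapNC replicates 2 and 3, and 0.107, 0.134 and 0.103 without GapC9 replicates 1, 2 and 3. Calls over the whole table fell in these fits too, as given for PSMD2. KIAA0368 also missed the threshold after median scaling (adjusted p 0.0837), quantile normalization (0.0562), without the variance trend (0.0584) and with the replicate block (0.0651), and PAAF1 missed it with the block (0.0608).

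The subunits without a PSM name did not pass. ADRM1, a ubiquitin receptor that sits on PSMD1, was at 100, 67.0 and 68.4 FPKM in GapNC and at 81.2, 63.5 and 63.8 FPKM in GapC9, and its log2 fold change of -0.16 turned to 0.18 after the GC correction. SEM1, the small subunit of the lid, was at 3.45, 3.48 and 4.10 FPKM in GapNC and 3.17, 1.02 and 3.61 FPKM in GapC9. Its GapC9 replicate 2 was far below the other libraries.

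NFE2L1 and NFE2L2 are transcription factors that can raise proteasome gene expression, NFE2L1 when the proteasome is impaired. NFE2L1 was at 56.2, 48.5 and 26.8 FPKM in GapNC and 36.3, 58.2 and 58.7 FPKM in GapC9. NFE2L2 was at 6.60, 10.2 and 8.22 FPKM in GapNC and 8.94, 12.8 and 9.61 FPKM in GapC9. Both overlapped, with adjusted p values of 0.670 and 0.382.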

How the data were processed

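RNA of 3 GapNC and 3 GapC9 libraries of HCT-116 cells was analysed. Reads were mapped by the authors with HISAT, and the FPKM values deposited were computed with StringTie. The submitters' processing notes list HISAT2 2.0, StringTie 1.3.0 and Bowtie 0.12.2. The notes list a mouse genome build while the methods state a human reference genome, and the human build is not given in the sources used here. FPKM is relative to all mapped fragments, so a change in abundant RNAs moves all other values. The table holds no counts, so no counting error can be given.

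FPKM values were used as deposited. limma 3.58.1 in R 4.3.3 modelled log2(FPKM + 0.1), with the prior variance following the mean level, for the 16028 rows with a mean of at least 0.1 FPKM, all 6 libraries in one fit, with Benjamini-Hochberg adjustment over all rows. Fold changes on this scale understate those of low rows. The assembly joined 9 members with neighbouring genes, and 24 members overlap a gene on the opposite strand. Whether strand was used in counting is not given in the sources used here. GC content and positions came from the GENCODE annotation of GRCh38 (GC for 99.3% of tested rows) and promoters from RefSeq GRCh38.p14. The target of the GapmeR was searched in spliced transcripts only. Figures were drawn with matplotlib 3.10.9.

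Members passing a threshold, the 3 highest and 3 lowest tested, the catalytic and inducible beta subunits, the PSMG chaperones with POMP, and the activators with PSMF1 were described in full; partner genes were named where they passed the adjusted p, besides ADRM1, SEM1, NFE2L1 and NFE2L2. The other members named were chosen after their values were seen. Members and lists were chosen with earlier results of these data known. Alternatives were other pseudocounts, filters and scalings, a GC correction (lowess, span 0.3), fits with a constant or a robust prior variance, a replicate block, leaving out 1 library at a time, and rows that name 1 gene only. Some partner genes are not reported here.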

Additional observations from a re-analysis of the deposited data

How the results depend on the processing

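The small number of libraries (3 a group), the lack of counts and GC trends that differed between libraries limit these results, and rows under the 0.1 FPKM filter rest on few fragments. Pseudocounts of 1 and 0.01 FPKM, no filter, leaving out rows listed at 0, robust variances and rows that name 1 gene changed no sign and no adjusted call among the genes named with a test. At the adjusted p, members higher in GapC9 numbered 0 as reported, 1 with a filter at 1 FPKM (PSMA6), 1 after median scaling (PSMA6) and 2 after the GC correction (PSMA6 and PSMD3). Members lower numbered 1 as reported, 2 with the filter at 1 FPKM (PSMD2 and PSMB10), 2 after the GC correction (PSMD2 and PSMC2) and 0 to 1 with a library left out. By the fold rule, the number lower fell from 1 to 0 after median scaling and after the GC correction, and 1 member, PSMB8, was higher with no filter. Partner rows lower numbered 2 as reported, 1 with the filter at 1 FPKM (KIAA0368), 1 after median scaling, after quantile normalization and without the variance trend (PAAF1 in each), and 0 to 3 with a library left out. Partner rows higher numbered 5 after the GC correction. These counts stand beside calls over the whole table that moved as well. As reported, 303 rows were higher and 817 lower of 16028, and after the GC correction 1068 and 1244 of 15909. They were 483 and 427 after median scaling, and 310 and 890 of 10229 with the filter at 1 FPKM. With a library left out they were 16 to 240 higher and 16 to 570 lower. The median log2 fold change of the members was 0.043 after median scaling, -0.034 after quantile normalization, -0.023 after the GC correction and -0.10 to -0.050 with a library left out. The cause of these shifts was not tested.

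Signs turned for members near 0. After median scaling PSMB3 was at 0.12, PSMB4 at 0.14, PSMB6 at 0.017, PSMD4 at 0.0041, PSMD7 at 0.014, PSMD9 at 0.037, PSMD11 at 0.0073, PSMD12 at 0.037, PSME3 at 0.050, PSME4 at 0.061 and PSMG2 at 0.11. After quantile normalization PSMB3 was at 0.0083, PSMD9 at 0.017 and PSMG2 at 0.034. After the GC correction PSMB3 was at 0.10, PSMB4 at 0.058, PSMB6 at 0.046, PSMD1 at -0.024, PSME3 at 0.039, PSMG2 at 0.010 and ADRM1 at 0.18. With a library left out, the range was -0.11 to 0.10 for PSMB3, -0.071 to 0.096 for PSMB4, -0.063 to 0.088 for PSMD1, -0.27 to 0.0020 for PSMD4, -0.22 to 0.026 for PSMD9, -0.24 to 0.0076 for PSMD12, -0.039 to 0.068 for PSMF1, -0.10 to 0.040 for PSMG2, -0.28 to 0.027 for ADRM1 and -0.066 to 0.48 for NFE2L1.

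Whether the replicate numbers pair the libraries was not settled. Deviations of same-numbered libraries correlated at 0.114, 0.036 and 0.033, and those of differently numbered libraries at -0.12 to 0.087. GapNC replicate 3 was nearest to GapC9 replicate 2, at 0.087. With the replicate block 0 members and 0 partner rows passed, as did 0 rows of the whole table, and PSMD2 was at an adjusted p of 0.0608 in limma. By unadjusted p with the block, 4 members were higher and 8 lower (8.70% and 17.4%), beside 10.1% and 18.4% of all tested rows.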

Other observations

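Among the shuttle factors that bring ubiquitinated proteins to the proteasome, and which dock on PSMD2, 2 of 5 rows had groups that did not overlap, both lower in GapC9, as were 21.6% of all tested rows, and neither passed. DDI2, a protease that activates NFE2L1, was at 7.94, 9.46 and 9.79 FPKM in GapNC and 5.38, 6.65 and 6.47 FPKM in GapC9, with an adjusted p of 0.0715 that was 0.0366 after the GC correction. UBQLN1 was at 32.2, 32.9 and 33.1 FPKM in GapNC and 28.0, 26.8 and 27.1 FPKM in GapC9, with an adjusted p of 0.105. These and the following gene were chosen after their values were seen.

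PITHD1, a proteasome-binding factor, was at 29.2, 28.5 and 12.5 FPKM in GapNC and 11.6, 11.0 and 11.6 FPKM in GapC9. GapNC replicate 3 thus lay near all GapC9 libraries. The ratio of PITHD1 was 0.487 with an unadjusted p of 0.0322 in limma, within the fold rule, but its adjusted p was 0.154.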
